A study of Mus musculus with 10 samples.

Results

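The respiratory chain of the mitochondrion is built from proteins made in the cytosol and a smaller set made inside the organelle, and the genes described here are the nuclear ones. They were taken by symbol from the mRNA tables, as the Nduf genes of complex I, Sdha to Sdhd of complex II, the Uqcr genes of complex III, the Cox4 to Cox8 genes of complex IV and the Atp5 genes of complex V. The choice gave 83 genes of the 40904 symbols in the tables: 37 in complex I, 4 in complex II, 8 in complex III, 17 in complex IV and 17 in complex V. The values came from cultured cortical neurons of ICR mouse embryos at embryonic day 14, kept for 11 days in vitro and given an adeno-associated virus, a gene delivery vector. One culture received AAV-Control and the other AAV-Gata1, which carries Gata1, a zinc finger transcription factor of blood cell development. The promoter that drives Gata1, the content of the control vector and the number of embryos or dishes behind a library are not given in the sources used here. The mRNA of each condition came from 1 library, out of 10 samples in the series; the other 8, which are chromatin, input and small RNA samples, were not analysed here. With 1 library per condition no difference below has a replicate check, and no test between the conditions was possible.

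Complex I (NADH dehydrogenase) takes electrons from NADH and complex II (succinate dehydrogenase) from succinate. Complex III passes them to cytochrome c and complex IV (cytochrome c oxidase) from there to oxygen. Complexes I, III and IV pump protons across the inner membrane, and complex V (ATP synthase) lets the protons back through a rotating ring to make ATP. Neurons draw most of their ATP for ion pumping and transmitter release from this chain, and several of its subunits exist as isoforms that differ between tissues.

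The Gata1 transcript had an FPKM of 0 after AAV-Control and of 2.07 after AAV-Gata1. In the sentences below, a pair of values gives the control library first and the Gata1 library second. FPKM scales the fragments of a transcript to its length and to the size of the library. Levels of different genes within a library are compared on that scale. How far the scaling holds for short transcripts was not tested, which limits the comparisons of level between genes and complexes below. The values summed to 476339 and 476794 FPKM, and the number of fragments behind them is unknown. Markers of several cell types were present in these cultures labelled as neurons, and no marker listed here stood at 0 in both libraries. The 11 pan-neuronal markers with a row summed to 855 and 818 FPKM, with 10 of 11 lower. The 10 astrocyte markers summed to 2515 and 2507 FPKM. All 12 microglia markers compared were higher, and the 14 with a row summed to 656 and 779 FPKM. The 8 pericyte, fibroblast and smooth muscle markers summed to 141 and 120 FPKM. Only 4 of these 8 had enough signal to be compared, and all 4 were lower. They ranged from Acta2 at 76.4 and 60.7 FPKM to Pdgfrb at 13.60 and 13.57 FPKM. The 12 oligodendrocyte lineage markers summed to 318 and 303 FPKM, with 3 higher and 8 lower of the 11 compared. Of all genes compared, 45.3% were higher and 54.7% lower. The part of these differences in the values below was not tested. In such mixed cultures fewer cells of a type and less RNA per cell cannot be told apart.

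The genes of the respiratory chain were among the most abundant messages of the cultures, and their levels were close in both libraries. Together they held 3.08% and 3.12% of the summed FPKM. Of the 83 genes, 79 had a mean of at least 1 FPKM and were compared, and 64 of these stood above the 90th percentile of all 13740 genes compared in both libraries. The median member stood at 149 and 141 FPKM, against 13.0 and 12.8 FPKM for all genes compared. The 4 genes under the minimum are isoforms: Ndufa4l2 stood at 0.806 and 0.720 FPKM, Cox4i2 was listed at 0 in the control library and had 0.152 FPKM in the other, Cox7b2 stood at 0.115 FPKM and was listed at 0, and Cox8c was listed at 0 in both. A further isoform gene, Cox6a2, reached the minimum only through its Gata1 value, so it could be compared only as a gene that was higher there.

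**Figure D1:**
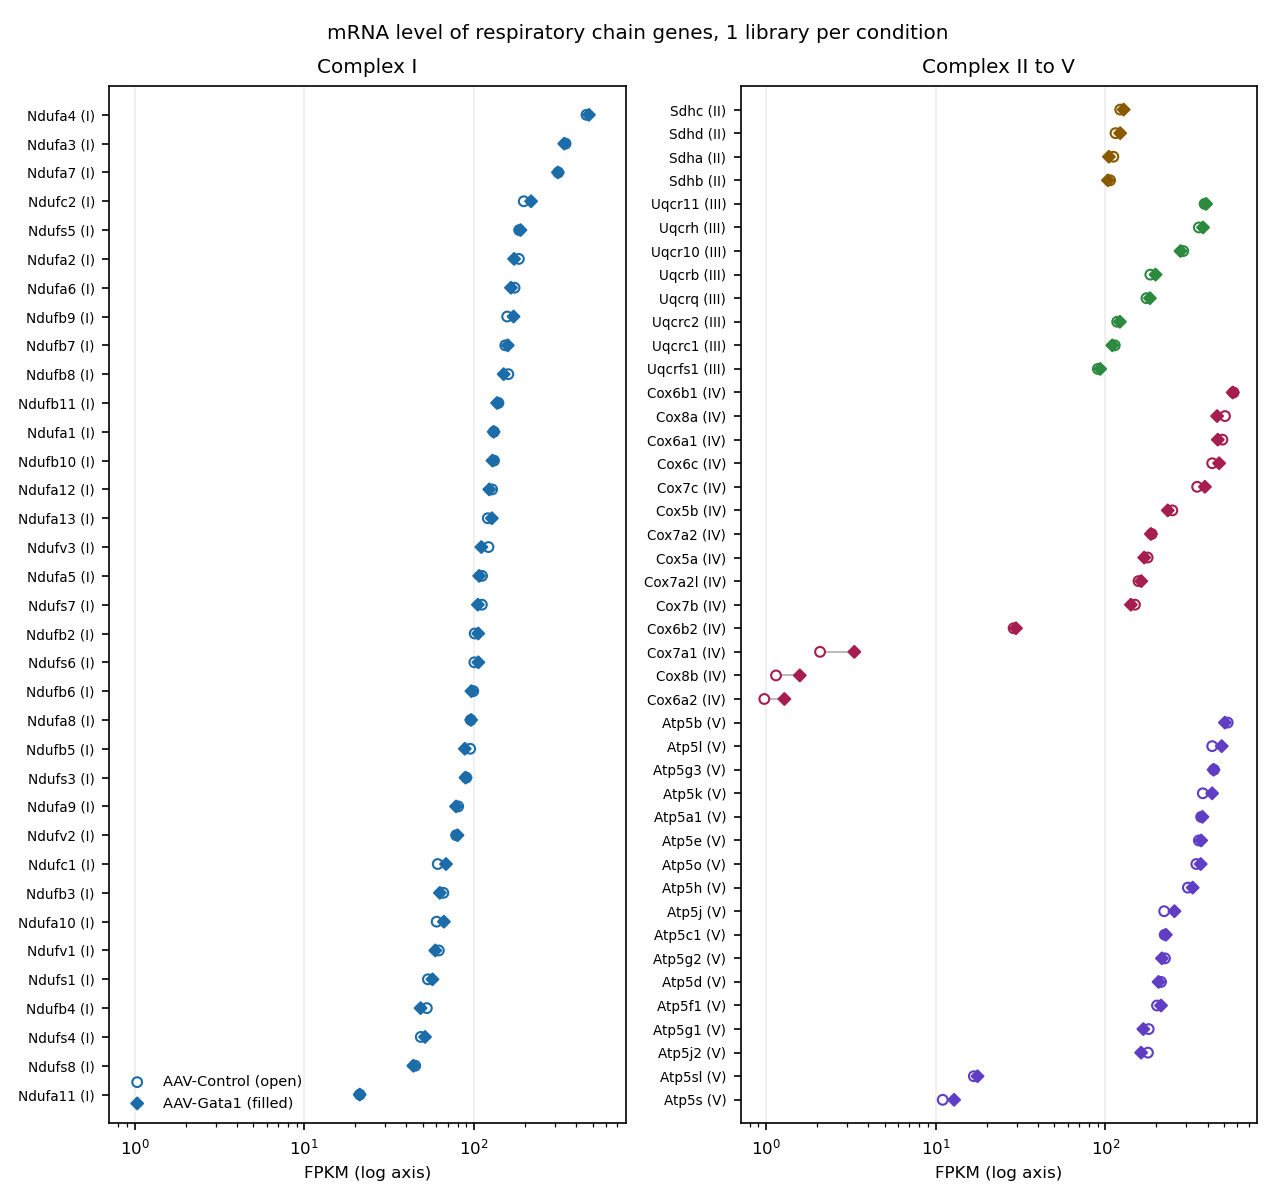
FPKM (log axis) of the genes compared, except 1 gene of complex I that is not shown, with complex I on the left and complexes II to V on the right; open circles are the AAV-Control library, filled diamonds the AAV-Gata1 library, and a grey line joins the values of a gene. Most pairs of symbols touch; the widest gaps on this axis belong to Cox7a1, Cox8b and Cox6a2, which lie at 0.976 to 3.31 FPKM.

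The complexes differed in level far more than the libraries did. In the control library the median was 106 FPKM for complex I, 113 FPKM for complex II, 179 FPKM for complex III, 182 FPKM for complex IV and 224 FPKM for complex V. The Gata1 library gave 106, 114, 190, 177 and 255 FPKM, with complexes III and IV changing places. Because complex IV holds several isoforms that these cultures hardly use, its median was 298 and 310 FPKM among genes whose mean reached 40 FPKM, a limit added after the data were seen; that placed it beside complex V, at 306 and 327 FPKM for its 15 genes above the limit. Above that limit the 4 complex II genes did not overlap with the 10 genes of complex IV or the 15 of complex V in either library: the highest complex II values were 122 and 128 FPKM, the lowest of complex IV 149 and 141 FPKM and the lowest of complex V 178 and 162 FPKM. All other pairs of complexes overlapped. Members of a complex are not replicates, and these orders were not tested.

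Within complexes the spread was narrowest in complex II, where the highest gene stood 1.15-fold and 1.24-fold above the lowest. Above 40 FPKM it was 2.95-fold and 3.12-fold in complex V, 3.81-fold and 3.98-fold in complex IV, 4.26-fold and 4.21-fold in complex III, and 10.2-fold and 10.8-fold in complex I.

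Differences between the libraries were measured as log2((Gata1 + 1)/(control + 1)) of the FPKM, a scale that understates differences of genes with low values. No member was 2-fold apart, where 0.233% of all genes were 2-fold or more higher and 0.284% were that much lower. At 1.2-fold, 2 members were higher (3.29% of all genes were) and none was lower (3.98%). At 1.1-fold, 11 members were higher (10.7% of all genes) and 1 was lower (13.7%). By direction alone 41 of the 79 were higher (45.3% of all genes) and 38 lower (54.7%), which with the ratios centred on the median of all genes, a log2 shift of -0.013, became 45 and 34.

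The median log2 ratio was 0.022 over all 79 members, against -0.013 over all genes compared. This sign rests on genes of low level, since the 72 members whose mean reached 40 FPKM had a median of -0.0058, against -0.0076 for all 2492 genes at that level. Of those 72 members 35 were higher (45.8% of all genes at that level) and 37 lower (54.2%), and none was 1.2-fold apart (0.642% were higher and 0.722% lower by that much). Among them 7 were at least 1.1-fold higher (5.06% of all genes at that level) and 1 was at least 1.1-fold lower (4.33%). The 7 were Atp5j, Atp5l and Atp5k of complex V, Ndufc1, Ndufc2 and Ndufa10 of complex I and Cox7c of complex IV, and the 1 was Cox8a of complex IV. Just short of that limit were Cox6c (0.135) on the higher side and Ndufv3 (-0.137) and Atp5j2 (-0.132) on the lower.

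By complex the medians were -0.011 for complex I (15 of 36 higher), 0.012 for complex II (2 of 4), 0.050 for complex III (6 of 8), 0.015 for complex IV (7 of 14) and 0.045 for complex V (11 of 17). The sign was not stable for complex I, which turned to 0.0016 with centring, or for complex IV, which turned to -0.042 among its genes whose mean reached 40 FPKM. Complexes II, III and V kept a positive median under every setting tried, although in complex II 2 genes were higher and 2 lower. Summed over its genes, complex V stood at 4608 and 4760 FPKM (3.31% higher), complex III at 1708 and 1752 FPKM (2.57% higher), complex I at 4618 and 4625 FPKM, complex II at 455 and 459 FPKM, and complex IV at 3292 and 3261 FPKM.

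**Figure D2:**
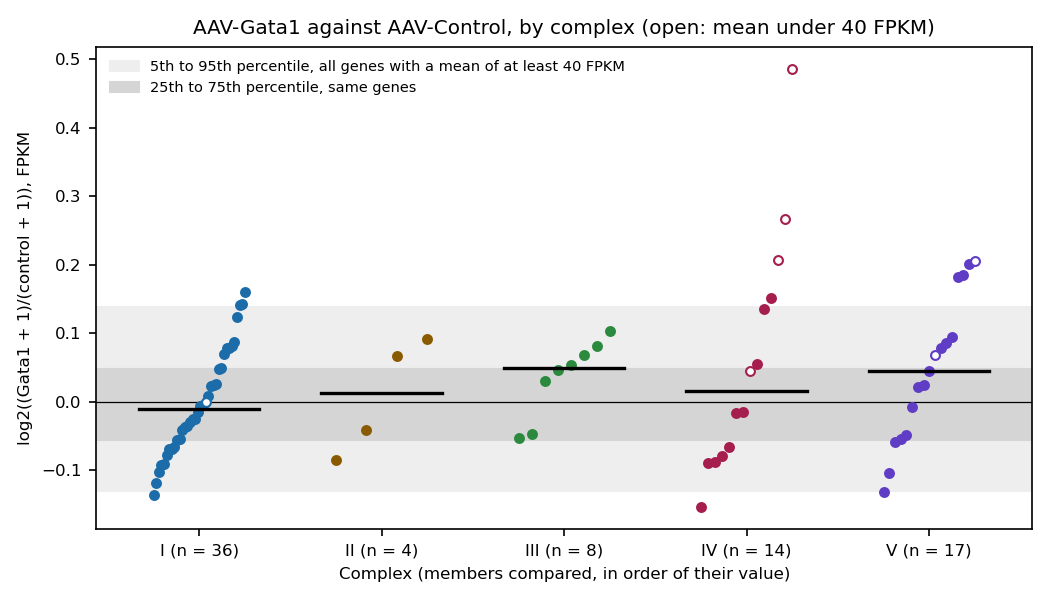
The log2((Gata1 + 1)/(control + 1)) of FPKM (vertical axis) for each gene compared, by complex; the black bars are medians over genes, open circles are genes with a mean under 40 FPKM, and the grey bands give the 5th to 95th and 25th to 75th percentiles of all 2492 genes of at least 40 FPKM. The 3 highest points of complex IV are Cox7a1, Cox8b and Cox6a2, all under 40 FPKM, and the filled points above the wider band are the 7 genes that were at least 1.1-fold higher. The 3 filled points below the wider band are Cox8a, Ndufv3 and Atp5j2.

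The start regions of these genes were described from reference sequence, apart from the expression values. RefSeq promoter windows of 300 bases (250 before the start site and 50 from it on, build GRCm38.p6) were found for 69 of the 83 genes, 75 windows in all. NRF1, GABP (an ETS family factor) and YY1 are factors known for binding start regions of respiratory chain genes. The letters searched on both strands were GCGCA and GCGC with any base between them for NRF1, CCGGAAG for ETS/GABP and AANATGGC for YY1, and no matches of these 3 overlapped each other. NRF1 letters occurred in 18 of the 75 windows (24.0%), against 4.60% of all 32851 windows and 6.38% of the 21263 windows of protein-coding genes. ETS/GABP letters occurred in 16 (21.3%, against 8.86% and 11.6%) and YY1 letters in 19 (25.3%, against 6.05% and 6.37%). At least 1 of the 3 was found in 46 windows (61.3%), against 17.4% of all windows and 21.4% of the windows of protein-coding genes.

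The other letters searched were closer to their shares elsewhere. The GC box (GGGCGG) was found in 38.7% of the windows, CCAAT in 42.7% and TATAAA in 10.7%, against 35.7%, 37.4% and 13.6% of all windows and 46.2%, 38.2% and 12.6% of those of protein-coding genes; a GC box match overlapped an ETS/GABP match in 1 window. The letters of GATA factors, AGATAA or TGATAA, were in 13 windows (17.3%), against 18.6% of all windows and 15.9% of those of protein-coding genes. The median GC content was 57.3% in these windows, 52.7% over all windows and 56.3% over those of protein-coding genes. YY1 matches lay close to the start: 11 of 20 began in the 50 bases from the start site on, as did 5 of 24 NRF1 matches and 6 of 19 ETS/GABP matches, while no GATA match did. By complex, YY1 letters were in 12 of 34 windows of complex I and 6 of 20 of complex V but in 1 of 13 of complex IV, and in none of the 5 of complex III or the 3 of complex II. The 6 of complex V include both windows of Atp5sl, which overlap and whose gene is not a subunit of the synthase. Windows of the same gene can overlap and are not independent. Such matches are descriptions of letters, not of binding.

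**Figure D3:**
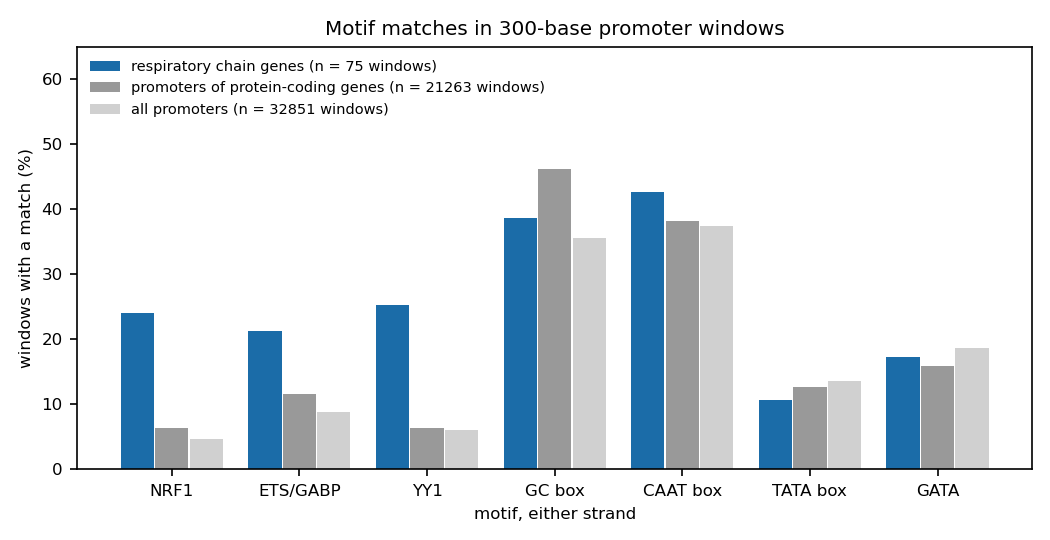
Share of promoter windows (vertical axis, percent) with at least 1 match to each motif on either strand, for the 75 windows of the respiratory chain genes, the 21263 windows of protein-coding genes and all 32851 windows. The bars of the respiratory chain genes stand above the others for NRF1, ETS/GABP and YY1, at 24.0%, 21.3% and 25.3%, and near them for GATA, at 17.3%.

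Many of these genes start back to back with a neighbour. In 22 of the 75 windows (29.3%) the window overlapped that of another gene on the opposite strand, against 10.8% of all windows and 11.4% of those of protein-coding genes. A few of the partners were genes of mitochondrial or ribosomal proteins, while most were not. Their share was not compared with that in other windows. Sdhd faces Timm8b, a chaperone gene of mitochondrial protein import (129 and 134 FPKM), Ndufb5 faces the mitochondrial ribosomal protein gene Mrpl47 (7.32 and 10.9 FPKM), and Ndufa7 faces the cytosolic ribosomal protein gene Rps28 (696 and 709 FPKM). Atp5j faces Gabpa, which encodes the DNA-binding subunit of GABP itself and stood at 21.1 and 23.3 FPKM. These 4 pairs were chosen after their values were seen.

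In complex I the 7 nuclear core subunits, which carry the flavin and the iron-sulfur clusters or bind quinone, lay below most accessory ones in level. Their median was 78.5 and 80.0 FPKM, against 121 and 117 FPKM for the 28 accessory subunits compared (Ndufa4 left aside). Ndufs7, which passes electrons on towards quinone, was the highest core gene at 111 and 105 FPKM, and Ndufs8 the lowest at 45.0 and 43.9 FPKM. Ndufs1, the largest core subunit, stood at 53.5 and 56.9 FPKM and Ndufs3 at 90.1 and 89.1 FPKM. Ndufv1, which binds the flavin and NADH, stood at 62.1 and 59.1 FPKM and its partner Ndufv2 at 78.5 and 80.0 FPKM. Of the 7, 3 were higher and 4 lower in the Gata1 library, with log2 ratios from -0.078 (Ndufs7) to 0.087 (Ndufs1).

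Accessory subunits surround the core and are needed for its assembly and stability. The largest differences were those of the membrane arm subunit genes Ndufc1, at 61.1 and 68.4 FPKM (11.9% higher, log2 ratio 0.16), and Ndufc2, at 197 and 217 FPKM (10.4% higher, 0.14). Ndufa10 stood at 60.2 and 66.5 FPKM (0.14). On the lower side Ndufv3, a small subunit at the NADH-binding end, stood at 122 and 111 FPKM (a change of -9.14%, log2 ratio -0.14) and Ndufb4 at 52.7 and 48.5 FPKM (-0.12). By series, 3 of 12 Ndufa genes, 3 of 10 Ndufb genes and 3 of 4 accessory Ndufs and Ndufv genes were higher; with centring the first count became 6 of 12, and the others did not move. Ndufs4, whose loss causes a fatal brain disease in mice and children, stood at 48.6 and 51.4 FPKM.

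The extremes of level in complex I were both accessory by symbol. Ndufa4 was the highest at 460 and 476.1 FPKM; its product was first described with complex I and is now counted as a subunit of complex IV, whose other major genes lay at 141 to 570 FPKM over both libraries. Ndufa11, a membrane arm subunit, was the lowest of those compared at 21.2 FPKM in both. Ndufa3 (347 and 340 FPKM) and Ndufa7 (314 and 312 FPKM) followed Ndufa4, and the other accessory genes lay between 48.5 and 217 FPKM over both libraries.

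Complex II is the only member of the chain that also works in the citric acid cycle, and all of its subunits are nuclear. Sdha, which holds the flavin and oxidises succinate, stood at 111 and 105 FPKM (log2 ratio -0.085), and Sdhb, the iron-sulfur subunit, at 107 and 104 FPKM (-0.042). The membrane anchor genes were on the other side: Sdhc stood at 122 and 128 FPKM (0.066) and Sdhd at 115 and 122 FPKM (0.091). Thus both catalytic genes were lower and both anchor genes higher in the Gata1 library, with and without centring. The differences in FPKM were -5.78% for Sdha, -2.89% for Sdhb, 4.74% for Sdhc and 6.54% for Sdhd. This division, and the other parts of enzymes used below, were drawn after the values were seen. The start regions of the genes with the largest difference on each side are shown because they carry NRF1 letters in different company. Sdhb, which was lower like Sdha, has 1 ETS/GABP match and no NRF1 match, and no window was found for Sdhc. Whether such letters go with the direction of a gene was not tested. Sdha has 3 NRF1 matches (chr13:74350191-74350490, minus strand), beginning at positions -98, -55 and -10, counted from the start site as 0. Sdhd has 1 NRF1 match at -79 and 1 ETS/GABP match at -46 (chr9:50603800-50604099, minus strand). Each is written along its gene, GRCm38.p6, with matches to the NRF1, ETS/GABP, YY1 and GATA letters in capitals:
Sdha: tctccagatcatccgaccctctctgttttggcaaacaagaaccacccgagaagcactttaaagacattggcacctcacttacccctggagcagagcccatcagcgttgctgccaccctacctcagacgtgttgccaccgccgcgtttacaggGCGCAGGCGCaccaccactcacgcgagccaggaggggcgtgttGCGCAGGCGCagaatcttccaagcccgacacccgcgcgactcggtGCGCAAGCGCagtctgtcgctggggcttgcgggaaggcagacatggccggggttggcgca
Sdhd: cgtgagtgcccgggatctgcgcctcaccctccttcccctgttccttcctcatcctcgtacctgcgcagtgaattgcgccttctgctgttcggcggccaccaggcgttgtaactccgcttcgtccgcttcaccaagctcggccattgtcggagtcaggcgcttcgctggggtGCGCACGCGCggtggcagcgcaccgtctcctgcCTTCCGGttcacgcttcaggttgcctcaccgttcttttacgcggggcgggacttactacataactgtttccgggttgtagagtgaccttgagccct

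In complex III the small subunits were the most abundant. Uqcr11 stood at 385 and 393 FPKM, Uqcrh, the hinge protein that helps cytochrome c to dock, at 356 and 376 FPKM, and Uqcr10 at 288 and 277 FPKM. Uqcrb, which lies near a quinone site, stood at 184 and 198 FPKM and had the largest difference of the complex (7.41% higher, log2 ratio 0.10), and Uqcrq stood at 175 and 183 FPKM. The structural core proteins were lower in level, with Uqcrc1 at 114 and 110 FPKM and Uqcrc2 at 117 and 122 FPKM. Uqcrfs1, the Rieske iron-sulfur protein that moves electrons to cytochrome c1, was the lowest at 90.3 and 93.2 FPKM. Only Uqcrc1 and Uqcr10 of the 8 genes were lower in the Gata1 library, at log2 ratios of -0.048 and -0.054, with and without centring.

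Complex IV showed the widest range of levels, from ubiquitous subunits to tissue-specific isoforms. Cox6b1, on the outer face where cytochrome c docks, was the highest of the 83 genes at 570 and 563 FPKM. Within the complex the next were the small membrane subunit genes Cox8a at 507 and 456 FPKM, Cox6a1 at 490 and 460 FPKM and Cox6c at 426 and 468 FPKM, in this order in the control and in the reverse order in the Gata1 library. Cox6c and Cox7c had the highest ratios among the abundant genes of the complex, with Cox7c at 348 and 386 FPKM (log2 ratios 0.14 and 0.15), while Cox8a was the lowest ratio of all 79 genes at -0.15 (-10.2% in FPKM). The matrix-side subunits were both lower: Cox5a stood at 177 and 169 FPKM and Cox5b, the zinc-binding subunit, at 248 and 233 FPKM. Cox7a2 stood at 187 and 185 FPKM and Cox7b at 149 and 141 FPKM. Of the 10 genes of at least 40 FPKM 7 were lower and 3 higher; the third higher gene, Cox7a2l, encodes a factor that joins complexes III and IV in supercomplexes and not a regular subunit (157 and 163 FPKM).

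The isoforms known from heart and skeletal muscle were at the edge of detection in both libraries. Cox7a1 stood at 2.08 and 3.31 FPKM, the largest log2 ratio of all 79 genes at 0.49, followed by Cox8b at 1.14 and 1.58 FPKM (0.27) and Cox6a2 at 0.976 and 1.28 FPKM (0.21). In FPKM without the added 1 the differences were 59.3%, 38.1% and 31.3% in that order. On the log2 scale used here Cox7a1 and Cox8b are the 2 genes past 1.2-fold, and with a pseudocount of 0.1 Cox6a2 made a count of 3. The direction of Cox6a2 was fixed by the minimum level, as given above, and adds nothing to that of the other two. Their share of the isoform pair or group stayed small: Cox7a1 made up 1.097% and 1.75% of the sum with Cox7a2, Cox8b 0.225% and 0.345% of the Cox8 genes, and Cox6a2 0.199% and 0.278% of the sum with Cox6a1. At such levels a few fragments can make the difference, and the number of fragments is unknown. Cox6b2, known as the testis isoform, was the exception among the tissue-specific genes at 28.8 and 29.7 FPKM, or 4.81% and 5.01% of the Cox6b sum. Ndufa4l2 made up 0.175% and 0.151% of the sum with Ndufa4.

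The start regions of the complex IV genes with the lowest and the highest ratio are shown because they differ in the letters found. Cox8a has 2 ETS/GABP matches around its start, beginning at -5 and 32 (chr19:7217567-7217866, minus strand). Cox7a1 has no match to the NRF1, ETS/GABP or YY1 letters and 3 GATA matches, beginning at -223, -196 and -177 (chr7:30183921-30184220, plus strand). GATA letters were found with ratios on both sides, as in Cox7c (2 matches, log2 ratio 0.15) and Uqcr10 (2 matches, -0.054). A link between these letters and the ratios was not tested. Capitals mark the matches as above, and no match says only that these letters are not in the window:
Cox8a: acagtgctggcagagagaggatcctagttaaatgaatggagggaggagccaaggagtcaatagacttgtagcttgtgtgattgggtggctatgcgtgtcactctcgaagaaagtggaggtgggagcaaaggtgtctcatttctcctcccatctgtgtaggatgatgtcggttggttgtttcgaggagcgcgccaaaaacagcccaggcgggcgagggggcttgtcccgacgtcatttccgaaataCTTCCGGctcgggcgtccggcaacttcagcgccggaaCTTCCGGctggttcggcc
Cox7a1: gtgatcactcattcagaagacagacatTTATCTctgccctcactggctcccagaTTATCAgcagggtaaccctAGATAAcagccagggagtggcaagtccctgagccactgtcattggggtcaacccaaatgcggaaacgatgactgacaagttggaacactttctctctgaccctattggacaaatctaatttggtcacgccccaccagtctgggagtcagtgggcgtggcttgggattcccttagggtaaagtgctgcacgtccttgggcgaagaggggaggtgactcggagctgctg

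With the minimum of 1 FPKM complex V was the most abundant complex by its median. It also had the largest differences among genes of high level. At a minimum of 5 FPKM complex IV stood above it in the control library, at 248 against 224 FPKM. Complex V stayed higher in the Gata1 library, at 255 against 233 FPKM. Its catalytic head (F1) is made from Atp5a1 (367 and 373 FPKM) and Atp5b (526 and 506 FPKM), the alpha and beta subunits, around the rotating shaft of Atp5c1 (224 and 227 FPKM), Atp5d (213 and 206 FPKM) and Atp5e (356 and 367 FPKM). Alpha and beta are used in equal numbers in the enzyme, while the level of Atp5b was 1.43-fold and 1.36-fold that of Atp5a1. The log2 ratios of the 5 head genes stayed between -0.055 (Atp5b) and 0.045 (Atp5e).

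The peripheral stalk, which keeps the head from turning with the ring, had all 4 of its genes higher in the Gata1 library, with and without centring. Of all genes of at least 40 FPKM, 45.8% were higher. Only Atp5j of the 4 lay above the 95th percentile of those genes, a log2 ratio of 0.14. Atp5j, coupling factor 6, stood at 222 and 255 FPKM (15.0% higher, log2 ratio 0.20), which was the largest ratio among the 72 genes of at least 40 FPKM. Atp5h, subunit d, stood at 306 and 327 FPKM (0.094), Atp5o, the OSCP subunit at the top of the stalk, at 344 and 365 FPKM (0.085), and Atp5f1, subunit b, at 201 and 213 FPKM (0.079). The sum over the 4 was 1074 and 1160 FPKM (8.03% higher).

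The ring that turns with the proton flow is made from many copies of subunit c, for which 3 genes encode the same mature protein with different import sequences. Atp5g3 gave 51.9% and 53.1% of the sum of the 3 (437 and 434 FPKM), Atp5g2 26.7% and 26.4% (224 and 215 FPKM) and Atp5g1 21.4% and 20.5% (180 and 167 FPKM). Their sum was 2.29-fold and 2.19-fold the level of Atp5a1. All 3 were lower in the Gata1 library, at log2 ratios of -0.0081, -0.060 and -0.10 in that order, but Atp5g3 turned to 0.0045 with centring. Among all genes of at least 40 FPKM, 54.2% were lower. Among the small membrane subunits e, f and g, of which e and g hold synthases together in dimers, Atp5l (subunit g, 426 and 485 FPKM, 0.19) and Atp5k (subunit e, 375 and 426 FPKM, 0.18) were higher, while Atp5j2 (subunit f, 178 and 162 FPKM, -0.13) was lower. Atp5s and Atp5sl match the symbol rule but are not subunits of the synthase. They were the lowest of the Atp5 genes, at 10.99 and 12.8 FPKM (0.21) and at 16.8 and 17.6 FPKM (0.069).

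**Figure D4:**
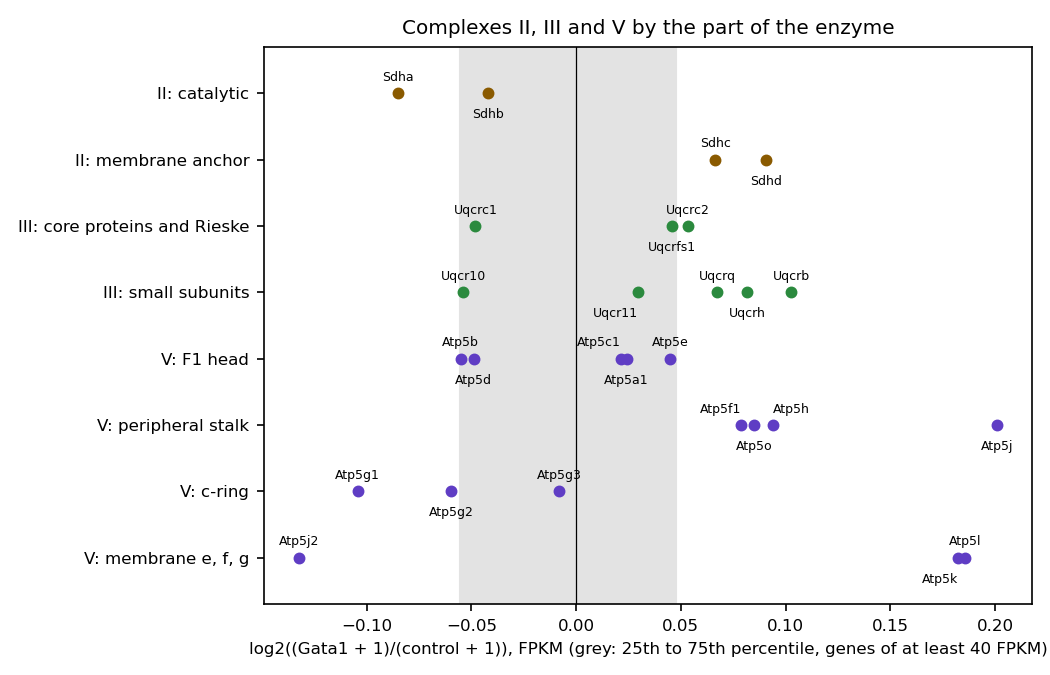
The log2((Gata1 + 1)/(control + 1)) of FPKM (horizontal axis) of each gene of complexes II, III and V, by the part of the enzyme it belongs to; 1 point is 1 gene and the grey band is the 25th to 75th percentile of all genes of at least 40 FPKM. The 4 peripheral stalk genes lie to the right of the band, from 0.079 to 0.20, and the 3 genes of the c-ring at or left of 0, from -0.10 to -0.0081. Of these, only Atp5j lies outside the 5th to 95th percentile of the same genes, which runs from -0.13 to 0.14 and is not drawn here.

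The start region of Atp5j is shown as that of the gene with the largest ratio at high level. Of its windows, the one with matches (chr16:84834927-84835226, minus strand, along the gene) holds a YY1 match beginning at -88 and an ETS/GABP match at -61, in capitals:
Atp5j: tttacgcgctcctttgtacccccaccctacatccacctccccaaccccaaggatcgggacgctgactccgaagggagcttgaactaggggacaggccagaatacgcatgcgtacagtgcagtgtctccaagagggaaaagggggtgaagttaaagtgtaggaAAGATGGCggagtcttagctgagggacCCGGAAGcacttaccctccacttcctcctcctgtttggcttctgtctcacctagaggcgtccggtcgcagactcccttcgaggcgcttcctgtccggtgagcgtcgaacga

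Several of these values may include fragments of other genes. By RefSeq coordinates, 27 of the 83 genes overlap another gene, a share that was not compared with that over all genes. Among them are 4 of the 7 genes named as at least 1.1-fold higher. These are Atp5j (with Gabpa), Atp5l (with Gm30934), Cox7c (with Gm22574) and Ndufa10 (with the microRNA gene Mir6900). How much any overlap adds to a value was not tested. Named pseudogenes are listed for 9 of the 83, with 4 for Atp5k, 2 each for Atp5l and Uqcrh, and 1 each for Ndufs5, Ndufa12, Cox5b, Cox7c, Atp5c1 and Atp5f1. The rules by which the deposited values assign fragments that match several copies are not given in the sources used here, and these genes are uncertain for that reason. Each of the 83 had 1 row in the tables, and the 3 pseudogene symbols dropped by the rule were at 0 in both libraries.

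No gene of the lists around the chain was 2-fold apart. Beside the counts in this and the next paragraph stand the shares over all genes compared: 45.3% were higher and 54.7% lower. At least 1.2-fold higher were 3.29%, and as much lower 3.98%. Whether any list differed from these shares was not tested. Of 5 further proteins of the chain outside the symbol rule, 2 were higher and 3 lower, with Cyc1, the cytochrome c1 of complex III, at 123 and 114 FPKM (log2 ratio -0.11), the synthase subunit gene Usmg5 at 389 and 402 FPKM, 2010107E04Rik at 336 and 331 FPKM and Ndufab1, the mitochondrial acyl carrier protein, at 81.1 and 80.2 FPKM. None of the 5 was 1.2-fold apart. Complex I assembly factors had a median log2 ratio of -0.018 (5 of 14 higher, 1 at least 1.2-fold lower), and the furthest apart was Acad9 at 30.6 and 24.7 FPKM (-0.30). Complex IV assembly factors had a median of -0.035 (7 of 20 higher, none 1.2-fold apart), although their furthest members were higher: Cox18, a membrane insertase, at 13.2 and 15.7 FPKM, Coa3 at 78.8 and 92.0 FPKM, and the copper chaperone gene Cox17 at 62.5 and 71.9 FPKM. Of the assembly factors of complex III, 3 of 5 were higher (median 0.037), with Ttc19 at 18.2 and 15.1 FPKM (-0.26). Of those of complex II 1 of 2 was higher, with Sdhaf1 at 2.96 and 3.13 FPKM. For complex V the count was 2 of 4 (median 0.066), with Atpaf1, which assembles the F1 head, at 9.04 and 10.4 FPKM and the inhibitor gene Atpif1 at 274 and 271 FPKM. On the log2 scale used here no gene of these 3 lists was 1.2-fold apart. Ttc19 fell just short of that limit on this scale and is past it in FPKM without the added 1.

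Regulators of mitochondrial biogenesis had a median of 0.017, with 8 of 13 higher, 1 at least 1.2-fold lower and none as much higher. That one was the coactivator gene Pprc1 at 7.99 and 5.98 FPKM (-0.36). Yy1 stood at 23.0 and 27.3 FPKM (0.24), Polrmt, the mitochondrial RNA polymerase, at 8.55 and 9.91 FPKM (0.19) and Tfam, which packages and transcribes mitochondrial DNA, at 22.6 and 19.8 FPKM (-0.18). Nrf1 stood at 12.6 and 11.8 FPKM and the coactivator gene Ppargc1a at 10.8 and 10.95 FPKM; these and Gabpa were named beyond the rule because their motifs or their role are described above. Citric acid cycle enzymes had a median of 0.023 (10 of 18 higher), with Dlat at 23.6 and 25.7 FPKM, and carriers and porins one of 0.0081 (6 of 10 higher), with the ATP and ADP exchanger gene Slc25a5 at 263 and 279 FPKM and the glutamate carrier gene Slc25a22 at 55.1 and 51.0 FPKM. No gene of these last 2 lists was 1.2-fold apart. Genes of coenzyme Q synthesis had a median of -0.016 (4 of 13 higher), with Coq4 at 10.5 and 13.95 FPKM and Coq6 at 17.1 and 13.96 FPKM as the members at least 1.2-fold higher and lower.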

How the data were processed

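Polyadenylated RNA of both cultures was sequenced as 100 bp paired ends after a TruSeq Stranded mRNA preparation, per the labels' protocols. The values deposited by the authors are FPKM, per the file headers. Per the submitters' processing notes the tools include Cuffdiff 2.1.1, Cufflinks 2.1.1 and TopHat2 2.1.1, and the builds are mm9 and mm10; which served these files, the strand setting and any scaling between libraries are not given in the sources used here.

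Of 40993 rows, 6 without a symbol (0.0122% and 0.0113% of FPKM) were left out, and of several rows per symbol the highest by mean was used. Steps of whole fragments were sought in 1283 low genes (under 0.1 FPKM), of which at most 43 had log2 ratios within 0.02 of each other, so fragment counts were not recovered and depth and counting error are unknown. Log2 ratios used a pseudocount of 1 and a minimum mean of 1 FPKM, with Python 3.11.15 and pandas 2.3.3, and the counting was tested on simulated data. Members and lists were chosen with earlier results of these data known. Genes named were Gata1, the 3 largest ratios each way, the extremes of level and core genes of each complex, isoforms, members under the minimum and up to 4 genes per list by size; others named stand out by a value or partner seen in the data. Genes of the rule without a row here were not analysed here, and 1 member is counted but not reported by name. Symbols were matched to RefSeq (GRCm38.p6) by symbol or synonym for all 83 members. Alternatives were another pseudocount, other minimums, summed rows, centring, means, and other memberships.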

Additional observations from a re-analysis of the deposited data

How the results depend on the processing

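No paired analysis was possible because each condition had 1 library and no test was run. Medians of log2 ratios were called moved when they differed by more than 1.5 times. Each member had 1 row, so summing rows could change nothing. Of 140 values recomputed under the other settings, some of which a setting could not touch, 20 moved and 5 reversed; the 40 FPKM minimum and the 1.1-fold counts were added after the data were seen. A minimum of 5 FPKM gave a median of 0.0032 over all members, -0.016 for complex IV and 0 members at least 1.2-fold higher. A minimum of 40 FPKM gave -0.0058, -0.042 for complex IV, 0.024 for complex V, 0 members at least 1.2-fold and 7 at least 1.1-fold higher, and median levels of 298 and 310 FPKM for complex IV. The complex V genes under that minimum were Atp5s and Atp5sl. With no minimum the medians were 0.0074 over all members and 0 for complex IV, with 2 members at least 1.1-fold lower. A pseudocount of 0.1 also gave 2 members at least 1.1-fold lower, and 3 in place of 2 at least 1.2-fold higher, Cox6a2 being the one added. Centring gave 0.034 over all members, 0.0016 for complex I, 0.025 for complex II and 0.027 for complex IV. Without symbols that are not subunits the medians were 0.0032 over all members, -0.015 for complex IV and 0.024 for complex V. Ndufa4 counted in complex IV gave 0.045 there. Means in place of medians were -0.00066 for complex I, 0.0075 for complex II and 0.060 for complex IV. No member was 2-fold apart under any of these settings at the minimums tried. The depth is unknown, so its limits could not be given. A planned comparison of the isoforms' proteins was not run.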
